A study of Mus musculus with 64 samples.

Results

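A set of 10 cell division genes was followed in whole blood of mice after chronic stress: Mki67, Tpx2, Top2a, E2f7, Ccna2, Ccnb1, Cdk1, Aurkb, Birc5 and Cdc20. They were chosen by name, as genes that dividing cells switch on, with earlier results of these data known. They were read from the rows whose gene symbol equals a listed name. The blood table held 6 of the 10, Mki67, Tpx2, Top2a, E2f7, Ccna2 and Birc5, among 8830 genes, and the tables of all tissues together held 17199 genes. Ccnb1, Cdk1, Aurkb and Cdc20 had no row in the blood table, neither by symbol nor by Entrez number, and are not analysed there.

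The animals were male BALB/c mice aged 28 weeks. The UCMS group had gone through 9 weeks of Unpredictable Chronic Mild Stress, a schedule of changing mild stressors used as a model of depression, and the control group was left unstressed. Trunk blood was taken 14 to 16 hours after the last stressor from 9 UCMS and 7 control animals, and prefrontal cortex, hippocampus and hypothalamus from 8 UCMS and 8 control animals each, for 64 libraries of total RNA from 17 animals. Within a group no animal gave more than 1 library. The animal codes of UCMS replicates 8 and 9 in blood (BS1 and BS2) differ in form from those of the other animals, and the labels do not explain them.

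In a dividing cell these genes work in sequence. Cyclins bind and switch on kinases, E2F factors turn the genes of DNA replication on and off, and spindle and passenger proteins then pull the copied chromosomes apart. In resting cells the DREAM complex holds many of them silent through a short promoter element called CHR, often near CCAAT boxes that bind the factor NF-Y. Mature mammalian red cells have no nucleus and cannot divide, but their precursors in marrow and spleen divide several times. Young red cells that enter the blood still hold RNA from those stages. Tfrc, the transferrin receptor that brings iron into red cell precursors and is lost as they mature, and Rhag, the Rh-associated glycoprotein of the red cell membrane, were used as measures of that lineage. Tfrc is also made by activated lymphocytes.

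The promoter letters of Mki67, Top2a and E2f7 are shown because each holds letters of CHR or CCAAT, named above. Each stretch covers 250 bases up to the base before the annotated start (RefSeq, GRCm38.p6). The windows lie at chr7:135716380-135716629 on the minus strand for Mki67, chr11:99024190-99024439 on the minus strand for Top2a, and chr10:110745189-110745438 on the plus strand for E2f7, each written 5′ to 3′ on the strand of the gene. Capitals mark 3 motifs on either strand. CHR was searched as TTTGAA or as TTCGAA, the box as CCAAT, and E2F letters as TTTGGCGC, TTTCCCGC or TTTCGCGC. On the other strand the box reads ATTGG, the first CHR form reads TTCAAA and the second E2F form reads GCGGGAAA.
Mki67: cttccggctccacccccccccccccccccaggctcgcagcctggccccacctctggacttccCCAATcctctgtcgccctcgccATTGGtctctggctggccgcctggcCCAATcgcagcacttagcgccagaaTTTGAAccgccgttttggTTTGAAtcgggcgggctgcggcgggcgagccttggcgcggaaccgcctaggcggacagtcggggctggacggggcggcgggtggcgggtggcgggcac
Top2a: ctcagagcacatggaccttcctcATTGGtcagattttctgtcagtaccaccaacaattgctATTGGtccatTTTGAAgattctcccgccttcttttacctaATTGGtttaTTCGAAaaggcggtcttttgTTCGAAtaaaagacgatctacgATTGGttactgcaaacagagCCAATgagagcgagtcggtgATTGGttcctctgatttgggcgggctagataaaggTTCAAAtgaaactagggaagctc
E2f7: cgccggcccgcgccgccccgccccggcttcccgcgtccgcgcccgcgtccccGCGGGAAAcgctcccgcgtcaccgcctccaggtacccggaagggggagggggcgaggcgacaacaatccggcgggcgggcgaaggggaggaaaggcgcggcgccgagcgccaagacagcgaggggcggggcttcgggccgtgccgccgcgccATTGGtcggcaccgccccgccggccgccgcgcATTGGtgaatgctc

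RefSeq gave such a window for 7 of the 10 genes, and for 4 of the 6 held in blood. Mki67 held 2 CHR matches, the nearer starting 98 bases before the start, and 3 CCAAT boxes. Top2a held 4 CHR matches and 6 CCAAT boxes. E2f7 held 2 CCAAT boxes and 1 E2F match, and Birc5 held none of the 3 motifs. CHR letters were in 4 of the 7 windows, CCAAT in 6 and E2F letters in 2, and no matches overlapped in any of them. Of 32851 mouse promoter windows of the same length, 17.1% held CHR letters, 33.8% CCAAT and 1.53% E2F letters. The letters were not limited to the cell division genes. The Rhag window held 1 CHR match and 2 CCAAT boxes. For Tfrc, 1 window held 1 CHR match and 1 CCAAT box, and another held none of the 3 motifs. A match is a description of letters and not a measured binding site.

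The deposited values are normalized log2 levels, with the base inferred from the values, and their depth is unknown. Levels of different genes are not set against each other, since they are not per length. The label of whole blood was checked with marker genes: Hbb-bs, adult beta-globin, stood at 15.42 in all 9 UCMS animals and at 14.73 to 15.42 in the controls, and 31 of 32 red cell genes, 17 of 17 platelet genes, 12 of 12 T cell genes and 9 of 10 neutrophil genes on fixed lists had rows. In RNA from a mixture of cells, fewer cells of a type and less RNA per cell cannot be told apart. Control replicate 2 stood apart most, with a median correlation of 0.849 with the other blood libraries, against 0.881 to 0.929 for the rest. Each difference is given as UCMS minus control in log2 units, with a standard error (SE), and was tested with limma over the 7947 genes left after the lowest 10% by mean were removed; all 6 genes passed that filter. A gene passed at an adjusted p under 0.05 (Benjamini-Hochberg).

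All 6 genes averaged higher in blood of UCMS animals than of controls, and none passed the test over all genes. Their median difference was 0.55, against -0.010 over all genes tested, and 48.5% of all genes averaged higher in UCMS. At an unadjusted p under 0.05, limma placed 5 of the 6 higher in UCMS, all but Birc5, where 6.48% of all genes were higher at that level. After adjustment the count was 0 of 6 and 0.0% of all genes, with 859 genes (10.8%) at an unadjusted p under 0.05 in either direction and a smallest adjusted p of 0.240. The exact permutation test, over all 11440 splits of the animals, gave 4 of the 6 an unadjusted p under 0.05, where it gave 10.9% of all genes one, and passed 0 genes after adjustment. The genes were chosen with earlier results of these data known, so these counts describe the set and are no independent evidence of a difference.

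**Figure D1:**
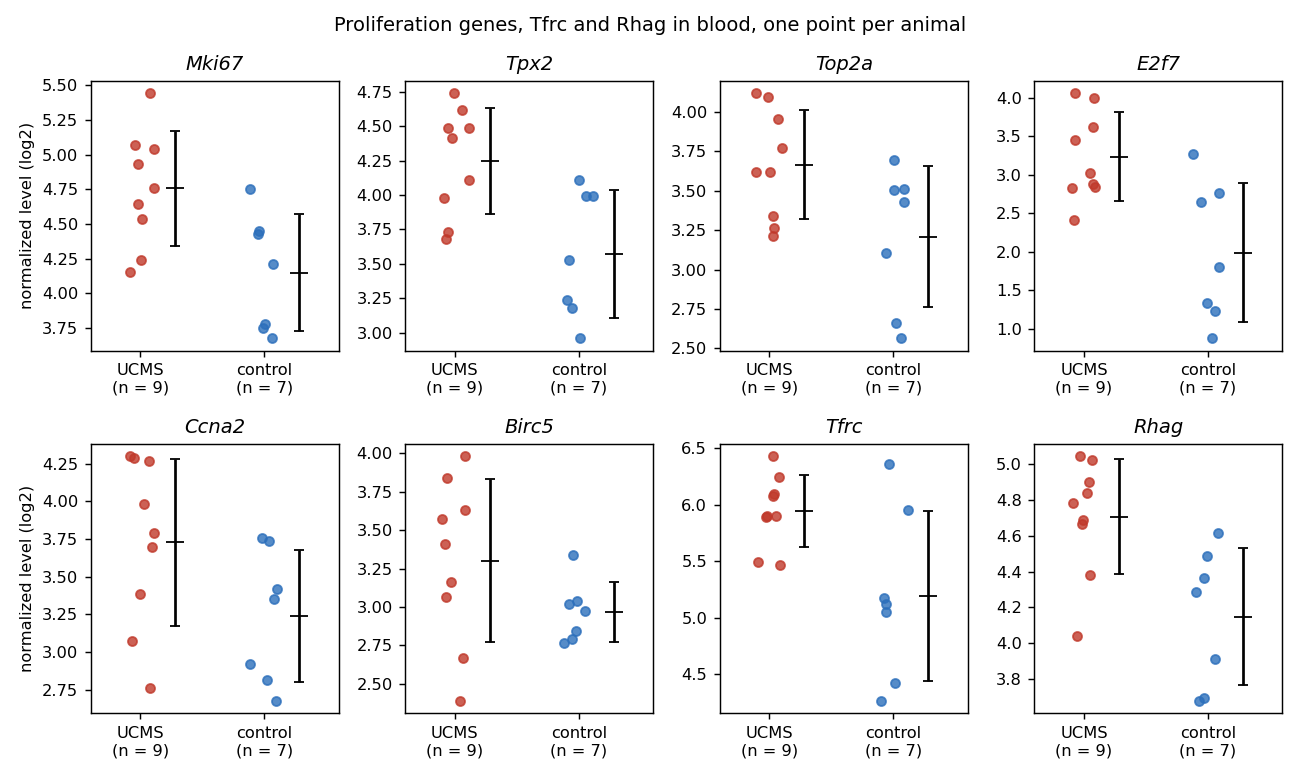
Normalized log2 level of the 6 genes, Tfrc and Rhag in blood (vertical axis, log2), 1 point per animal, UCMS (n = 9) left of control (n = 7), with the mean and SD as a bar beside the points. In every panel the UCMS mean lies higher and the groups overlap. E2f7 shows the widest gap, 3.24 in UCMS against 1.99 in control, at a mean level among the lowest 30% of genes.

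Mki67 (Entrez 17345, chr7:135689784-135716361) encodes Ki-67, a nuclear protein that coats mitotic chromosomes and is absent from resting cells. Its levels ran from 4.15 to 5.44 in UCMS animals, with a median of 4.76, against 3.67 to 4.75 in controls, with a median of 4.21. The groups overlapped, but 8 of 9 UCMS animals lay above the control median, 5 above every control, and 3 of 7 controls lay below every UCMS animal. The difference of means was 0.61 (SE 0.20; limma adjusted p = 0.419), and the two-sided exact permutation p was 0.0129 before adjustment and 0.391 after.

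Tpx2 (Entrez 72119, chr2:152847964-152895321) builds microtubules around the chromosomes and activates the kinase Aurora A on the spindle. It ran from 3.68 to 4.74 in UCMS animals (median 4.41), against 2.96 to 4.11 in controls (median 3.53). All 9 UCMS animals lay above the control median and 6 above the highest control. The means were 4.25 ± 0.39 (SD, n = 9) in UCMS and 3.57 ± 0.46 (n = 7) in control animals, a difference of 0.68 (SE 0.20; limma adjusted p = 0.401; exact permutation p = 0.00769, 0.368 adjusted).

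Top2a (Entrez 21973, chr11:98992943-99024189) is the topoisomerase that untangles copied DNA before it is parted. Its levels were 3.21 to 4.12 in UCMS animals (median 3.62), against 2.56 to 3.69 in controls (median 3.43). Here 6 of 9 UCMS animals lay above the control median and 4 above every control. The 2 lowest levels, 2.56 and 2.66, belonged to control replicates 7 and 2. The difference was 0.46 (SE 0.19; limma adjusted p = 0.458; exact permutation p = 0.0382, 0.448 adjusted).

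E2f7 (Entrez 52679, chr10:110745439-110787384) encodes an atypical E2F factor that shuts replication genes down again. It had the largest difference of the 6, with levels of 2.41 to 4.06 in UCMS animals (median 3.03), against 0.88 to 3.27 in controls (median 1.799). Its mean level was among the lowest 30% of genes in blood, where the unknown depth limits what a difference can show. All 9 UCMS animals lay above the control median, and 4 of 7 controls lay below every UCMS animal. The SD was 0.57 in UCMS animals and 0.91 in controls, whose lowest and highest levels were those of control replicates 6 and 5. The difference was 1.25 (SE 0.33; limma adjusted p = 0.401; exact permutation p = 0.00551, 0.368 adjusted).

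Ccna2 (Entrez 12428, chr3:36564865-36572150) encodes cyclin A2, the partner of cyclin-dependent kinases in DNA replication and on entry into mitosis. It ran from 2.76 to 4.30 in UCMS animals (median 3.79), against 2.67 to 3.76 in controls (median 3.35). Above the control median lay 7 of 9 UCMS animals, 5 of them above every control. UCMS replicate 1, however, was near the bottom of the whole set, with only control replicate 7 below it. The difference of 0.49 (SE 0.23) had an unadjusted limma p of 0.0497 (0.459 adjusted) and an exact permutation p of 0.0802.

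Birc5 (Entrez 11799, chr11:117849251-117855743) encodes survivin, which holds the Aurora B kinase on the chromosomes and also restrains cell death. It ran from 2.39 to 3.98 in UCMS animals (median 3.41), against 2.77 to 3.34 in controls (median 2.97). The 9 UCMS animals held both the highest and the lowest levels, so that the SD was 0.53 in UCMS and 0.20 in control animals. The difference of 0.33 (SE 0.21) had an unadjusted limma p of 0.118 (0.536 adjusted) and an exact permutation p of 0.138.

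The red cell genes used as measures stood higher in UCMS animals as well. Tfrc ran from 5.47 to 6.43 in UCMS animals (median 5.90), against 4.26 to 6.36 in controls (median 5.13). Rhag ran from 4.04 to 5.05 in UCMS animals (median 4.78), against 3.68 to 4.61 in controls (median 4.29). All 9 UCMS animals lay above the control median of Tfrc, and 7 of 9 lay above every control in Rhag. The differences were 0.75 for Tfrc (SE 0.25; limma adjusted p = 0.419) and 0.56 for Rhag (SE 0.18; limma adjusted p = 0.403), and neither passed.

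Among animals of the same treatment, 4 of the 6 genes followed Rhag past the threshold, and with Tfrc none passed. This was fitted in limma with the level of Rhag or Tfrc centred within treatment, so that the difference between the groups plays no part. With Rhag, Mki67, Tpx2, Top2a and Ccna2 had a positive slope past the threshold, where 330 of 7946 genes (4.15%) had one; 5.24% of genes passed in either direction. With Tfrc, 0 of the 6 and 0.0% of all genes passed, and a permutation test of r passed 0 of the 6 and 0.0252% of all genes.

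Ccna2 lay closest to Rhag, with a Pearson r of 0.930 and a Spearman rho of 0.871 over 16 animals (limma adjusted p = 0.00428). Per log2 unit of Rhag it was higher by 1.36 (SE 0.19). Mki67 had r = 0.855 and rho = 0.879 (limma adjusted p = 0.0167), and Top2a r = 0.787 and rho = 0.790 (limma adjusted p = 0.0265). Tpx2 had r = 0.720 and rho = 0.685 (limma adjusted p = 0.0424), the nearest to the threshold of those that passed. Birc5, at r = 0.574 and rho = 0.432, and E2f7, at r = 0.481 and rho = 0.521, did not pass (limma adjusted p = 0.131 and p = 0.194). Permuting levels within treatment gave adjusted p values for r over all genes of 0.0167 for Ccna2, 0.0192 for Mki67, 0.0339 for Top2a, 0.0708 for Tpx2, 0.108 for Birc5 and 0.287 for E2f7, with 4.58% of all genes past 0.05. For rho, the adjusted permutation p was 0.0238 for Ccna2, 0.0227 for Mki67, 0.0436 for Top2a, 0.0929 for Tpx2, 0.277 for Birc5 and 0.245 for E2f7.

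**Figure D2:**
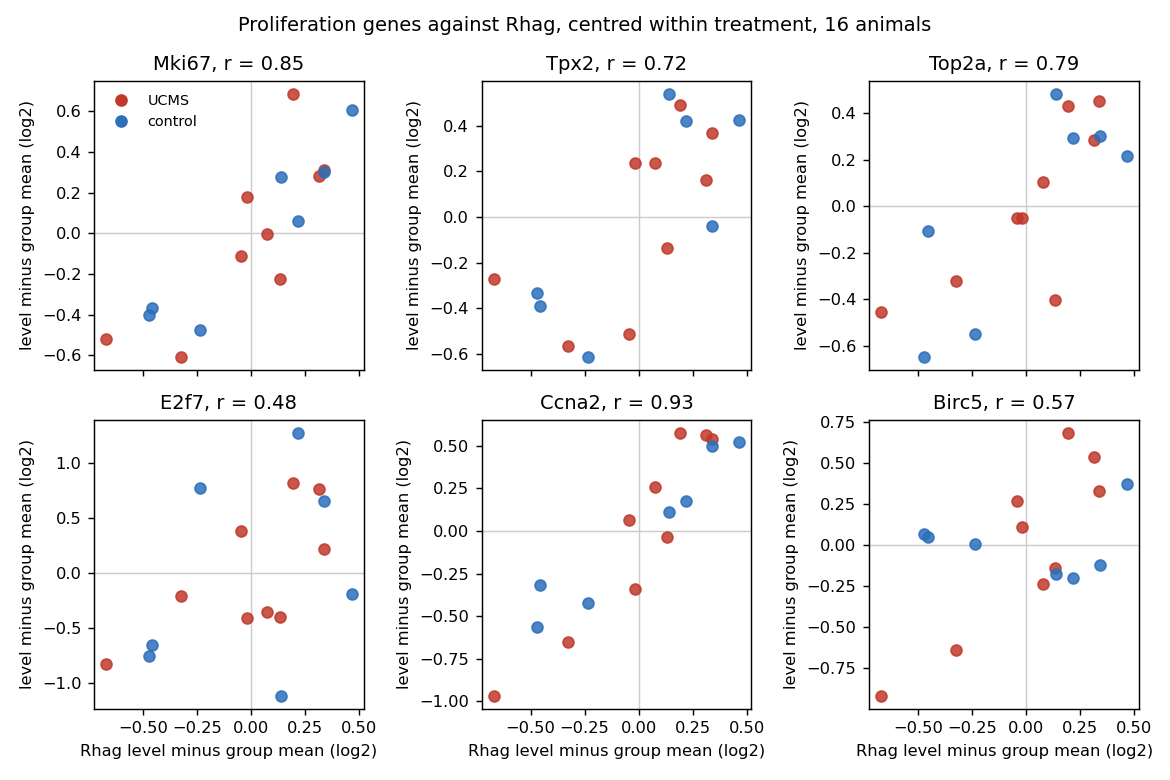
Log2 level of each of the 6 genes (vertical axis) against that of Rhag (horizontal axis), both minus the mean of the animal's treatment group, 1 point per animal (9 UCMS, 7 control). Ccna2 lies near a line, with r = 0.930, while E2f7, with r = 0.481, scatters most.

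Single animals decided some of these calls. Without control replicates 7 and 3, the 2 farthest from the median level of Rhag, r was 0.946 for Ccna2, 0.831 for Mki67, 0.761 for Top2a, 0.662 for Tpx2, 0.762 for Birc5 and 0.312 for E2f7. Only Ccna2 then passed, and 3 genes of the table did. Without UCMS replicate 1 and control replicate 7, the 2 farthest from the median of the centred Rhag level, r was 0.884 for Ccna2, 0.835 for Mki67, 0.746 for Tpx2, 0.697 for Top2a, 0.442 for Birc5 and 0.287 for E2f7. In that fit, chosen after seeing the data, 0 of the 6 genes passed (limma adjusted p = 0.0629 for Ccna2) and 1 gene of the table did. With 1 animal left out at a time, Mki67 and Ccna2 passed in all 16 fits, while Top2a missed the threshold in 4 and Tpx2 in 12 (limma adjusted p of 0.0141 to 0.0697 for Top2a and 0.0360 to 0.0803 for Tpx2). The count of the 6 genes past the threshold was 2 without control replicate 4, control replicate 7, UCMS replicate 1 or UCMS replicate 5.

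Within the UCMS animals alone, all 6 genes followed Rhag in sign, with r = 0.939 for Ccna2, 0.862 for Birc5, 0.788 for Mki67, 0.776 for Top2a, 0.680 for E2f7 and 0.659 for Tpx2. Within the controls, r was 0.963 for Ccna2, 0.935 for Mki67, 0.797 for Top2a, 0.778 for Tpx2, 0.348 for E2f7 and 0.0137 for Birc5. None passed within either group, where the exact permutation p adjusted over all genes was at least 0.160 in UCMS animals and at least 0.355 in controls. With 7 controls few orderings exist, and the exact p of a single gene cannot get small enough to pass there alone. That test cannot decide whether the genes follow Rhag within controls. The slope of Birc5 on Rhag was larger in UCMS than in control animals by 1.41 (SE 0.45), but 0.0% of genes, and none of the 6, passed for a difference in slope (limma adjusted p = 0.9999 for Birc5).

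The relation to Tfrc was looser, with its highest r within the controls. Over 16 animals, r with Tfrc was 0.531 for Mki67, 0.504 for Ccna2, 0.469 for Top2a, 0.383 for Tpx2, 0.174 for Birc5 and 0.0186 for E2f7. Spearman's rho ran from -0.0118 for E2f7 to 0.468 for Mki67, and no adjusted permutation p for r was under 0.722 or for rho under 0.924. Within UCMS animals r was 0.117 for Ccna2, 0.0461 for Mki67 and -0.0248 for Top2a. Within controls it was 0.908 for Ccna2, 0.868 for Mki67 and 0.712 for Top2a. The SD of Tfrc was 0.318 in UCMS animals and 0.755 in controls, so r is not directly comparable between the groups. The difference in slope between UCMS and control animals did not pass for any gene (limma adjusted p = 0.995 for each of the 6). UCMS replicate 7 had the lowest Tfrc of the UCMS animals, 5.47, and the highest Mki67 of all animals, 5.44. Without it r with Tfrc was 0.753 for Mki67, 0.635 for Ccna2, 0.593 for Top2a, 0.508 for Tpx2, 0.333 for Birc5 and 0.106 for E2f7, and none passed (limma adjusted p = 0.296 or more). Without control replicates 7 and 2, the 2 farthest from the median level of Tfrc, r was 0.326 for Mki67, 0.310 for Ccna2, 0.283 for Birc5, 0.0679 for Tpx2, 0.00148 for E2f7 and -0.00969 for Top2a. It was thus lower for Mki67, Ccna2, Tpx2, Top2a and E2f7 without these animals and higher for Birc5. Tfrc and Rhag themselves had r = 0.647 across the 16 animals.

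**Figure D3:**
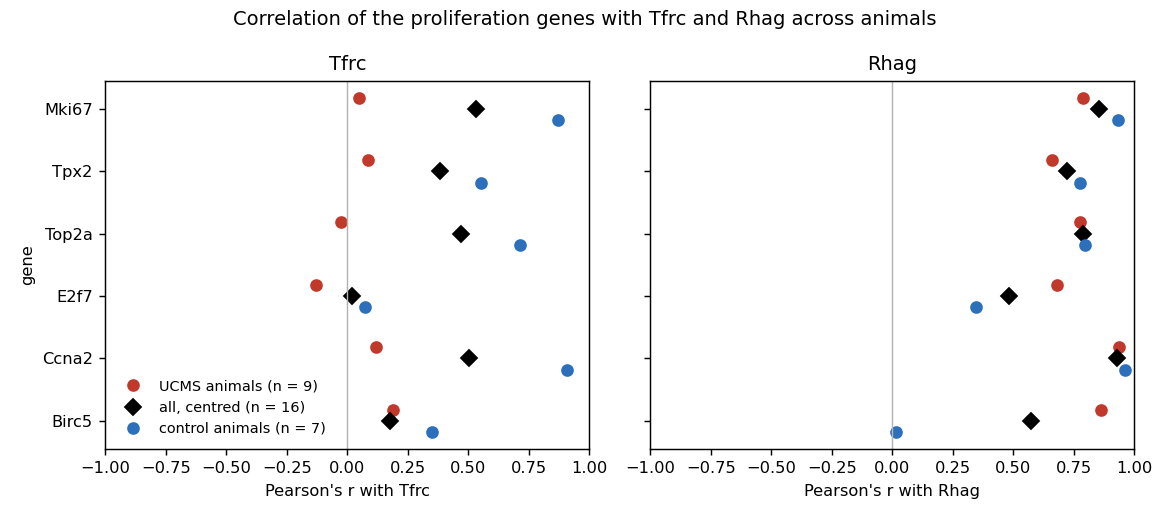
Pearson's r (horizontal axis) of each gene (vertical axis) with Tfrc (left) and Rhag (right): within the 9 UCMS animals, over all 16 animals centred within treatment, and within the 7 control animals. With Rhag all values are above 0, from 0.0137 to 0.963. With Tfrc the UCMS values lie between -0.131 and 0.188, where Tfrc itself varied less (SD 0.318 in UCMS against 0.755 in control animals).

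At an equal level of Rhag the difference between UCMS and control animals was smaller than without it for each of the 6 genes, and its sign was mixed. With Rhag as a covariate in limma, the median difference of the 6 was 0.00111, and 0 of 6 had an unadjusted p under 0.05. It was 0.039 for Mki67 (SE 0.17), -0.037 for Top2a (SE 0.18), -0.052 for Birc5 (SE 0.24), 0.19 for Tpx2 (SE 0.20) and -0.27 for Ccna2 (SE 0.16). For E2f7 it was 0.68 (SE 0.40; limma adjusted p = 0.942). With Tfrc as a covariate the median was 0.27, and only E2f7 had an unadjusted p under 0.05, with a difference of 1.23 (SE 0.42; limma adjusted p = 0.831). Both covariates differ between the groups themselves, and the part of red cell precursors in the differences cannot be told apart from treatment by these fits.

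**Figure D4:**
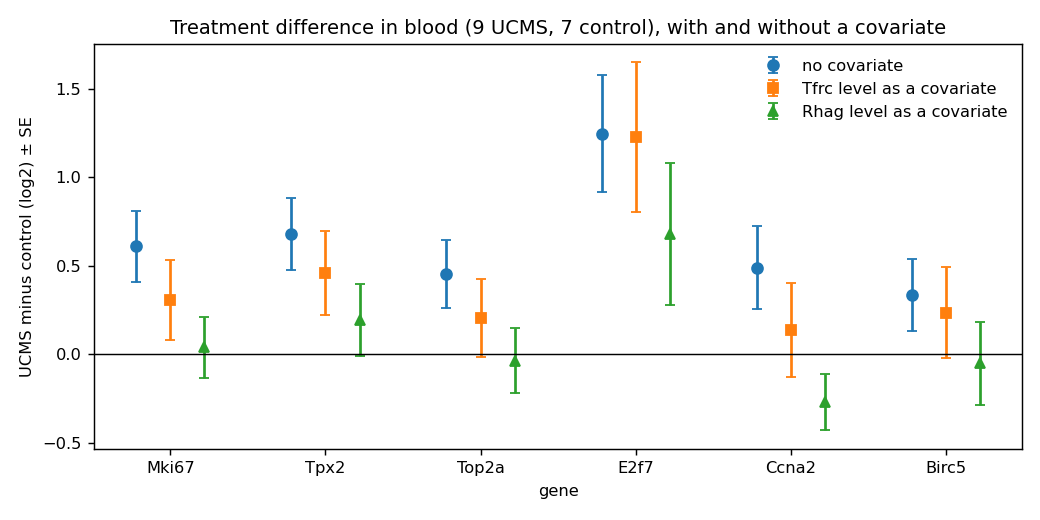
Difference UCMS minus control on the log2 scale with its SE (vertical axis) for each gene (horizontal axis), with no covariate, with Tfrc and with Rhag as a covariate in limma (9 UCMS, 7 control). With Rhag the values of Mki67, Top2a and Birc5 lie between -0.052 and 0.039, and that of E2f7 at 0.68.

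The genes varied together across animals, E2f7 least. Over the 15 pairs, levels centred within treatment had r from 0.113 to 0.875 with a median of 0.680, and 9 pairs (60.0%) reached 0.5. Over all 31549596 pairs of genes tested the median was -0.00552 and 7.02% reached 0.5. Mki67 and Ccna2 were the closest pair at 0.875, followed by Mki67 and Top2a at 0.861 and Mki67 and Tpx2 at 0.854; Tpx2 and E2f7 were the loosest at 0.113. Pairs share their libraries, so these values are a description with no test. By animal, UCMS replicates 2, 5 and 7 stood above their group mean in 6 of 6 genes and UCMS replicates 1, 3 and 9 in 0 of 6. Among controls, replicates 1 and 5 stood above in 5 of 6, and replicates 3 and 7 in 1 of 6. Rhag lay above the group mean in UCMS replicates 2, 5 and 7 by 0.31, 0.34 and 0.19. In UCMS replicates 1 and 3 it lay below it, at -0.67 and -0.32, but in UCMS replicate 9 it lay above, at 0.13.

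The genes outside the 10 that tracked the mean centred profile of the 6 most closely were Bmp2k (r = 0.934 over 16 animals), a kinase, Mllt10 (0.915), a chromatin protein, and Ppm1b (0.914), a phosphatase. Herc6, Kel, Alms1, Srp14, Ube2f and Mboat2 were also among the 10 most alike, at 0.894 to 0.909. Kel, a blood group protein of the red cell membrane at 0.901, was the only one of the 10 on a fixed list, that of red cell precursors. Rhag ranked 12 among 7938 genes, at 0.892, and Tfrc 1566, at 0.427. None of these 10 genes passed for treatment; Mboat2 had the largest difference, 0.62 (SE 0.23; limma adjusted p = 0.442).

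Most other genes of the cell cycle also averaged higher in UCMS animals, with 0 past the adjusted threshold on any list. Spindle, kinesin and cytokinesis genes averaged higher in UCMS animals in 17 of 18, with 11 at an unadjusted p under 0.05 and a median of 0.45. Kif15, a spindle motor, averaged 3.31 ± 0.35 in UCMS and 2.64 ± 0.68 in control animals, and Prc1, which bundles the central spindle, 3.95 ± 0.29 in UCMS and 3.45 ± 0.43 in control animals (SD, n = 9 and 7). DNA replication genes averaged higher in 15 of 17, with 8 at an unadjusted p under 0.05 and a median of 0.42. Uhrf1, which carries DNA methylation over to the new strand, had the largest difference among them, 3.24 ± 0.40 in UCMS against 2.40 ± 0.54 in control animals, and Cdc6, which licenses replication origins, averaged 4.36 ± 0.34 in UCMS against 3.79 ± 0.50 in control animals. Read beside these counts, 6.48% of all genes were higher at that level and 4.33% lower. The lists too were chosen with earlier results of these data known.

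Mitotic kinases, checkpoint and kinetochore genes averaged higher in 8 of 9, 2 of them at an unadjusted p under 0.05 (Cenpf, difference 0.53, and Casc5, 0.52, both of the kinetochore), with a median of 0.40. Cyclins, E2F factors and mitotic regulators averaged higher in 21 of 25, with 5 at that level higher and 1 lower, and a median of 0.30. E2f8, the atypical partner of E2f7, differed by 0.73 (SE 0.29), and Mybl2, the B-MYB factor of cell cycle genes, by 0.68 (SE 0.28). The lower one was Ccnd3, a D-type cyclin, at -0.38 (SE 0.15; limma adjusted p = 0.452). Condensin and chromosome structure genes averaged higher in 9 of 10 with a median of 0.20 and 1 at that level, Ncapg2. Inhibitors of cyclin-dependent kinases were mixed, with 2 of 4 higher and a median of -0.11, and 1 at that level, Cdkn2c, at 0.57 (SE 0.25).

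The relation to Rhag was positive and past the threshold for 8 of 18 spindle genes, 3 of 9 mitotic kinase and kinetochore genes, 4 of 17 replication genes, 4 of 25 cyclin and E2F genes, 1 of 4 kinase inhibitors and 0 of 10 condensin genes, against 4.15% of all genes. Among the spindle genes Kif4 had the highest r, 0.87, and it was chosen for naming after its value was seen. With Rhag as a covariate the median treatment differences of these lists lay between -0.17 and -0.00478.

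Marker genes of blood cells were read beside them. Red cell precursor genes averaged higher in UCMS animals in 28 of 30 tested, where 48.5% of all genes did, with a median of 0.34. At an unadjusted limma p under 0.05, 8 were higher, against 6.48% of all genes, and 0 passed after adjustment. The list holds Tfrc and Rhag themselves, which are among the 8, so these counts partly repeat the differences given above. The 2 lower genes were Nfe2, at -0.36, and Gata1, at -0.31. The summed level of the list, on the log2 scale, was 12.51 to 13.34 in UCMS animals against 12.20 to 12.93 in controls. With Rhag, 10 of 29 had a positive slope past the threshold, among them Ermap and Kel, against 4.15% of all genes. Other genes of the list did not follow Rhag. Alas2 had r = 0.044 with it and a treatment difference of 0.098, and Nfe2 had r = 0.104. Several animals shared the same Alas2 level, such as 11.62, the median of both groups, which limits what its r and difference can show. All 6 genes correlated positively with the red cell list, which includes Tfrc and Rhag, with a median r over its genes of 0.339 (E2f7) to 0.608 (Mki67). For comparison, the median r of each of the 6 with all genes lay between -0.0415 and 0.00590. T cell genes averaged lower in UCMS animals in 12 of 12, with none at an unadjusted p under 0.05, and their median r with the 6 was -0.682 (Top2a) to -8.21e-05 (E2f7). The summed T cell level was 6.82 to 7.42 in UCMS animals against 6.70 to 7.76 in controls.

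B cell genes had a median r of -0.645 (Top2a) to -0.207 (E2f7), a summed level of 5.68 to 7.47 in UCMS animals against 6.02 to 7.23 in controls, and Blk, a kinase of B cells, had a negative slope on Rhag past the threshold (limma adjusted p = 0.0455), where 1.08% of all genes had one. Platelet genes averaged lower in 17 of 17, with a summed level of 10.60 to 12.28 in UCMS animals against 11.81 to 12.34 in controls. At an unadjusted limma p under 0.05, 10 of them were lower, where 4.33% of all genes were. The median r of platelet genes with the 6 was -0.380 (Birc5) to 0.0333 (E2f7). Neutrophil genes averaged lower in 9 of 9, with none at an unadjusted p under 0.05 and a median of -0.22, and monocyte genes in 7 of 8, with 1 at that level, Fcgr1, and a median of -0.36. Summed levels were 8.18 to 9.23 in UCMS animals against 8.47 to 9.58 in controls for neutrophil genes, and 8.16 to 9.10 in UCMS animals against 8.19 to 10.40 in controls for monocyte genes. The median r with the 6 was -0.140 to 0.115 for neutrophil genes and -0.238 to -0.0939 for monocyte genes. Markers of other blood cells that can divide were sparse in the table. Of 10 neutrophil precursor genes 5 had rows and of 6 stem and progenitor genes 1, Gata2, which averaged 3.45 ± 0.30 in UCMS and 3.71 ± 0.42 in control animals. Neutrophil precursor genes summed to 4.05 to 7.11 in UCMS animals against 4.53 to 7.44 in controls, with none at an unadjusted p under 0.05. Their median r with the 6 was positive for 5 of the 6, from -0.273 (E2f7) to 0.394 (Tpx2). Of the 4 tested, 3 averaged lower in UCMS animals and 1 higher, with a median difference of -0.088. The higher one was Chil3, at 3.57 ± 1.25 in UCMS and 2.42 ± 1.47 in control animals (limma adjusted p = 0.469). Plasma cell genes summed to 5.06 to 6.41 in UCMS animals against 4.99 to 6.17 in controls. The part of these cell types in the differences was not tested.

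The brain tables held fewer of the 10 genes: Mki67, Tpx2 and Ccna2 in prefrontal cortex, and Mki67 and Ccna2 in hippocampus and in hypothalamus. Rhag had a row in hypothalamus and in blood. No gene passed between UCMS and control animals in any brain region, with 0.0% of genes past the adjusted threshold in each and 2.95% in hippocampus, 2.12% in hypothalamus and 2.18% in prefrontal cortex at an unadjusted limma p under 0.05. The tables were normalized separately, so no test was made between tissues.

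Mki67 averaged 4.92 ± 1.13 in UCMS and 5.17 ± 1.06 in control prefrontal cortex (SD, n = 8 each; limma adjusted p = 0.987). In hippocampus it averaged 4.57 ± 1.18 in UCMS and 4.79 ± 1.40 in control animals (limma adjusted p = 0.991). Ccna2 averaged 4.56 ± 0.39 in UCMS and 4.82 ± 0.31 in control prefrontal cortex, a difference of -0.26 (SE 0.16; limma adjusted p = 0.987). Its differences were -0.13 (SE 0.22) in hippocampus and -0.12 (SE 0.14) in hypothalamus. Mki67 in hypothalamus and Tpx2 in prefrontal cortex were removed by the filter on low levels and enter no test here. Mki67 in hypothalamus averaged 2.12 ± 1.53 in UCMS and 2.18 ± 1.74 in control animals. Tpx2 in prefrontal cortex averaged 2.70 ± 0.61 in UCMS and 2.46 ± 0.77 in control animals.

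Within the brain, Mki67 was split by hemoglobin RNA. In hypothalamus it stood at 4.56 to 5.31 in 4 libraries with an Hbb-bs level over 12, of 2 UCMS and 2 control animals, and at 1.04 to 1.71 in the 12 other libraries. Rhag stood at 3.27 to 3.98 in the same 4 libraries and at 0.32 to 0.35 in the others. In hippocampus Mki67 was 6.83 to 7.22 in 3 such libraries, against 3.26 to 4.80 in 13, and in prefrontal cortex 6.87 to 7.01 in 2, against 2.84 to 6.003 in 14. The hemoglobin-rich libraries therefore held the highest Mki67 levels in all 3 regions, with no overlap. Ccna2 was split the same way in hypothalamus, at 5.08 to 5.57 against 4.49 to 4.998, but overlapped in hippocampus and prefrontal cortex. Tpx2 in prefrontal cortex was 2.17 to 2.28 in the hemoglobin-rich libraries, inside the 0.999 to 3.61 of the others. Without the hemoglobin-rich libraries, an alternative chosen after seeing the data, the hippocampal Mki67 difference was 0.12, against -0.22 with all, and had an adjusted limma p of 0.966. The libraries came from 4 animals across the regions and are not independent; the part of blood in the brain values was not tested.

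**Figure D5:**
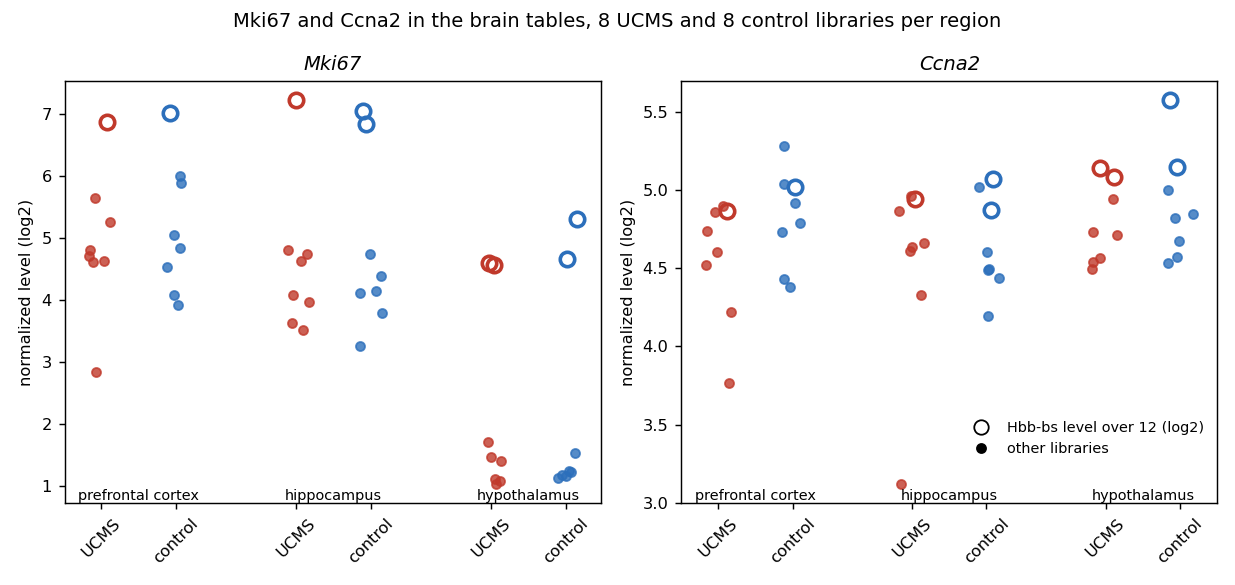
Normalized log2 level (vertical axis) of Mki67 (left) and Ccna2 (right) in each brain library, by region, UCMS left of control (n = 8 each), with open circles for libraries with an Hbb-bs level over 12. The open circles are the highest Mki67 values in each region, 4.56 to 5.31 in hypothalamus against 1.04 to 1.71 for the others.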

How the data were processed

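Total RNA was depleted of ribosomal RNA and sequenced as strand-specific libraries from 100 ng per sample, per the labels' protocols. Per the submitters' processing notes, the build is GRCm38.p4. The aligner, the counting tool and any filter were not given in the sources used here. Deposited were normalized values, 1 table for each tissue, taken as log2 levels after quantile normalization by the authors. Both points were inferred from the values, as 72.4% of ranks in blood and 88.7% to 89.4% in the brain regions were equal in all libraries within 0.002. Depth is therefore unknown, no counting interval is given, and no count model was run. Columns with no sample numbered 0.

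Groups were treatment within tissue. limma 3.58.1 (R 4.3.3; trended prior variance, two-sided, Benjamini-Hochberg over all genes tested at 0.05) was run per tissue after the lowest 10% of genes by mean were left out, and tested on simulated data. For the relations, each blood gene was fitted on treatment plus the level of Tfrc or Rhag centred within treatment. Permutation tests used all 11440 splits for treatment and 100000 resamples within treatment for r and rho, in Python 3.11.15 (scipy 1.17.1), adjusted over all genes; a narrower adjustment and p values for gene pairs, both planned, are not printed. Alternatives were other filters and variance models, a replicate block, array weights, covariates and left-out animals.

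The genes, lists and tests were chosen with earlier results of these data known. Named genes were the 10, Tfrc and Rhag, the 10 genes most like the mean profile, and up to 4 per list by smallest p with the first 3 of each marker list. A few of these are not reported here. Gene coordinates are from GENCODE M21 on GRCm38. UCMS and control replicate numbers name different animals, so the samples are not paired.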

Additional observations from a re-analysis of the deposited data

Results flagged for a closer look

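Among 38 groups of 4 to 10 samples of the cell division genes held, Tfrc and Rhag, in blood and the brain regions, 5 held a sample far from the rest, where chance gives about 1 in 20 groups. None was in blood. Mki67 stood at 7.22 in hippocampus of UCMS replicate 6, with the next UCMS animal at 4.80; this library is rich in hemoglobin RNA. Ccna2 stood at 3.12 in hippocampus of UCMS replicate 3, with the next lowest UCMS animal at 4.33. Tfrc was low in the same library, at 3.26, with the next at 4.33. Tfrc stood at 5.12 in prefrontal cortex of control replicate 1, with the next control at 4.53; this library too is rich in hemoglobin RNA. Tfrc stood at 3.49 in prefrontal cortex of UCMS replicate 5, with the next lowest UCMS animal at 4.37. The causes were not tested.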

How the results depend on the processing

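No member passed the adjusted threshold for treatment in blood in any of 155 refits of single genes (limma adjusted p of 0.297 to 0.992), and 152 of these kept a higher UCMS mean. The 3 that turned had Rhag as a covariate: Top2a at -0.037, Ccna2 at -0.27 and Birc5 at -0.052. The 5 members at an unadjusted p under 0.05 became 3 with the lowest 30% of genes left out, a filter that removes E2f7 itself and leaves Ccna2 at an unadjusted limma p of 0.0504, not 0.0497. They became 3 with array weights, 1 with Tfrc and 0 with Rhag as a covariate, and 3 to 6 without single animals (3 without control replicates 2 or 7, or UCMS replicates 5 or 7). All genes at that level numbered 451 with Tfrc and 365 with Rhag, against 859, and the members' median difference was 0.00111 with Rhag. Without single animals, 0 to 1 genes passed in blood (1 without UCMS replicate 2), and in hippocampus 336 to 688 genes had an unadjusted p under 0.05, against 414 (688 without UCMS replicate 6).

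Genes following Tfrc numbered 0, but 2 with levels not centred, 8 without the 2 farthest animals and 0 to 9 without single animals (9 without control replicate 2). Genes following Rhag numbered 416, but 1035 not centred, 3 without the 2 farthest by level, 1 without the 2 farthest by centred level and 67 to 541 without single animals (67 without UCMS replicate 1, 95 without control replicate 7, 136 without control replicate 3, 157 without control replicate 4, 201 without UCMS replicate 5, 203 without UCMS replicate 2 and 249 without control replicate 5). Members following Rhag numbered 4, but 1 without the 2 farthest by level, 0 without the 2 farthest by centred level and 2 to 4 without single animals. Correlations with Tfrc turned for Top2a, at -0.00969 without the 2 farthest and -0.0248 in UCMS animals alone, and for E2f7, at -0.0118 by rho, -0.131 in UCMS animals alone, -0.0904 without the 2 farthest by centred level and -0.152 to 0.163 without single animals. In the brain, Mki67 in hippocampus turned to 0.12 without the hemoglobin-rich libraries and was -0.596 to 0.106 without single animals (positive without control replicates 1 or 7). Ccna2 there was -0.195 to 0.0685 (positive without UCMS replicate 3), and Mki67 in prefrontal cortex -0.522 to 0.0532 (positive without control replicate 1 or UCMS replicate 2). The causes were not tested.

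UCMS and control replicate numbers do not pair the animals: same-numbered deviations correlated at -0.258 to 0.250 in blood, 1 of 7 pairs being closest to its own number, and at -0.453 to 0.551 in the brain regions, where 3 of 8 at most were. With a replicate block in blood, 0 genes passed for treatment, 851 genes and 4 members had an unadjusted p under 0.05, the members' median was 0.58, and 0 genes and 0 members followed Rhag past the threshold, with r of 0.729 to 0.954 for the 4 that had. UCMS replicates 8 and 9 left out together changed no call named here. The fits by centred level and without hemoglobin-rich libraries were chosen after seeing the data. The unknown depth limits what low levels can show.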
